A study of Mus musculus with 20 samples.

Results

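The 10 genes described here encode glycosyltransferases that build gangliosides or place sialic acid on glycans: Ugcg, St3gal5, St8sia1, B4galnt1, B4galnt2, St8sia4, St8sia6, St3gal1, St3gal6 and St6gal1. They were taken by symbol from a table of 23284 genes, and all 10 were found. The set was selected on measured RNA counts: B4galnt2 and St8sia1 were known to be higher after Zmiz1 loss. For that reason values for the comparisons of Zmiz1 deletion are given as a description: counts of calls appear only beside the share of all genes called, and nothing is read from them. The rule for that choice did not name the comparison of Notch1 blockade, which is tested. Earlier results of these data were known, however, when the members and gene lists were chosen.

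RNA was sequenced from 20 libraries of mouse thymocytes labelled DN3, the stage at which T-cell precursors rearrange the T-cell receptor beta chain and depend on Notch1 signals. All mice were of the C57BL/6 strain. DeltaMxCre mice (MxCreZmiz1f/f, n = 3) and MxCre mice without floxed Zmiz1 (n = 3) were given 40 mcg pI-pC 5 times and sorted 8 weeks later; pI-pC is a synthetic double-stranded RNA that switches on the interferon-responsive MxCre. DeltaTamCre mice (Rosa26CreERT2Zmiz1f/f, n = 4) and TamCre mice (Rosa26CreERT2 alone, n = 4) were sorted 43 to 44 h after 0.2 mg/g tamoxifen. Neither MxCre nor Rosa26CreERT2 is limited to thymocytes. The other mice received 10 mg/kg of a Notch1 antibody against the negative regulatory region (AntiNRR, n = 3) or control IgG (n = 3) and were sorted 24 h later. The labels give neither a genotype beyond the strain for these mice nor how many mice stand behind a library, and p-values for that pair therefore reflect spread between samples, which may be technical. The age of the mice is not given either.

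Both controls of the Zmiz1 comparisons carried Cre and received the inducing agent. The 12 libraries of the MxCre, DeltaMxCre, IgG and AntiNRR groups were made with the SMARTer Ultra low input kit and hold 11695668 to 19133149 expected counts each. The 8 libraries of the TamCre and DeltaTamCre groups were made with the TruSeq mRNA v2 kit and hold 52615332 to 101425251. Kit and mouse model cannot be told apart, so levels are compared only within a kit. Zmiz1, the deleted gene, averaged 331 CPM (library-scaled counts, by the TMM method) in MxCre and 123 in DeltaMxCre, and 293 in TamCre and 187 in DeltaTamCre. Its ranges did not overlap in either pair. Whether the counted reads cover the deleted part of Zmiz1 is not given. In AntiNRR the Notch targets Dtx1 (172 CPM in IgG and 11.4 in AntiNRR), Il2ra (3543 and 656) and Ptcra (214 and 71.1) all fell, with edgeR adjusted p-values of 0.000311, 0.000211 and 5.32e-07. The sorting gate in the labels reads CD44+ and CD25-, which is the reverse of the textbook DN3 gate. The transcripts followed the textbook pattern in all 20 libraries: 542 CPM or more, up to 5885, for the CD25 gene Il2ra, and 0.55 to 7.23 CPM for Cd44.

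Gangliosides are membrane lipids made of ceramide and a sialylated sugar chain, assembled one sugar at a time. Ugcg attaches the first glucose, St3gal5 adds the first sialic acid to give GM3, St8sia1 adds a second to give GD3, and B4galnt1 adds N-acetylgalactosamine to open the branch to GM2 and GD2. Other enzymes of the set act mostly on glycoproteins, where sialic acid caps the chain: St3gal1 on O-glycans, St6gal1 on N-glycans, St3gal6 on selectin ligands, St8sia4 in chains of polysialic acid, St8sia6 mostly on O-glycans, and B4galnt2 in the Sda antigen. Sialylation is known to change as thymocytes mature.

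The 250 bases upstream of the RefSeq transcript start (GRCm38.p6, the mm10 genome) are shown for B4galnt2 and St8sia1, the pair with the largest log2 fold changes in DeltaMxCre. They are also shown for St8sia4, whose range, like that of St8sia1, lay above the controls in both deletions. St8sia4 was called by edgeR in neither deletion. All 3 lie on the minus strand and are printed 5′ to 3′ in the direction of transcription. They are chr11:95914872-95915121 for B4galnt2, chr6:142964453-142964702 for St8sia1 and chr1:95667595-95667844 for St8sia4. Capitals mark RUNX motifs.
B4galnt2: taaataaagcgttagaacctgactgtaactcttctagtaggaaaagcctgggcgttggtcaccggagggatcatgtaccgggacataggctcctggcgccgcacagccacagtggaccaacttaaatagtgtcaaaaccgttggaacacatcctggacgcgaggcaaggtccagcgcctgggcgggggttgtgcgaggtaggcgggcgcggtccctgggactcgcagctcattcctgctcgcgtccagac
St8sia1: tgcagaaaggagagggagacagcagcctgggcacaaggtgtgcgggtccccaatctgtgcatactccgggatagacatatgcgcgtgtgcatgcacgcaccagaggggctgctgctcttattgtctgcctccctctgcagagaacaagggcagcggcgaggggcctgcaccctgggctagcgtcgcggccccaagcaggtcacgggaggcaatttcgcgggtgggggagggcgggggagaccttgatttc
St8sia4: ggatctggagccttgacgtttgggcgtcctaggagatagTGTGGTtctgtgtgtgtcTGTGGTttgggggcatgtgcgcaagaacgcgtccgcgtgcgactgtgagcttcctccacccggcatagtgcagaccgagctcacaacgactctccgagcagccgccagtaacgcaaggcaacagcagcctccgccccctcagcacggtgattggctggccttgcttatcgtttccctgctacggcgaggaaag

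Motifs were searched on both strands from 250 bases before to 50 bases after each start. The motifs were TGGGAA for RBPJ, the DNA-binding partner of Notch (in 25.6% of 32841 promoters), TGTGGT for RUNX (16.8%), CACGTG for MYC (7.15%), CAGCTG (16.3%) and CAGGTG (20.2%) for E proteins, CTTTGAT for TCF (3.73%), AGATAA for GATA (11.2%) and CCGGAAG for ETS (8.86%). No motif of the 8 overlaps another in these windows, and none of them was found in the window of B4galnt2, St8sia1, St3gal5, St8sia6 or Ugcg. The St8sia4 window held both RUNX matches shown, at -211 and -193 from the start, and CAGCTG at 22 bases past it. St6gal1 (3 windows) and St3gal6 (2 windows) held GATA and RBPJ matches, and St3gal6 a RUNX match. A match, or its absence, describes these letters in this window only.

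After Zmiz1 deletion in the MxCre model, B4galnt2 RNA was several times higher, and St8sia1 RNA about doubled its control level. Both were known to be higher after Zmiz1 loss when the set was chosen, so this is a description only. The log2 fold changes of Ugcg, which starts the pathway, and of B4galnt1 were each 0.10. Under Notch1 blockade St8sia1 rose as well, together with St3gal1, and B4galnt2 was lower than in IgG without passing the test. In the tamoxifen model B4galnt2 and St8sia1 had smaller log2 fold changes than in the MxCre model, and St8sia1 and St8sia4 were the members whose ranges did not overlap with the controls.

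**Figure D1:**
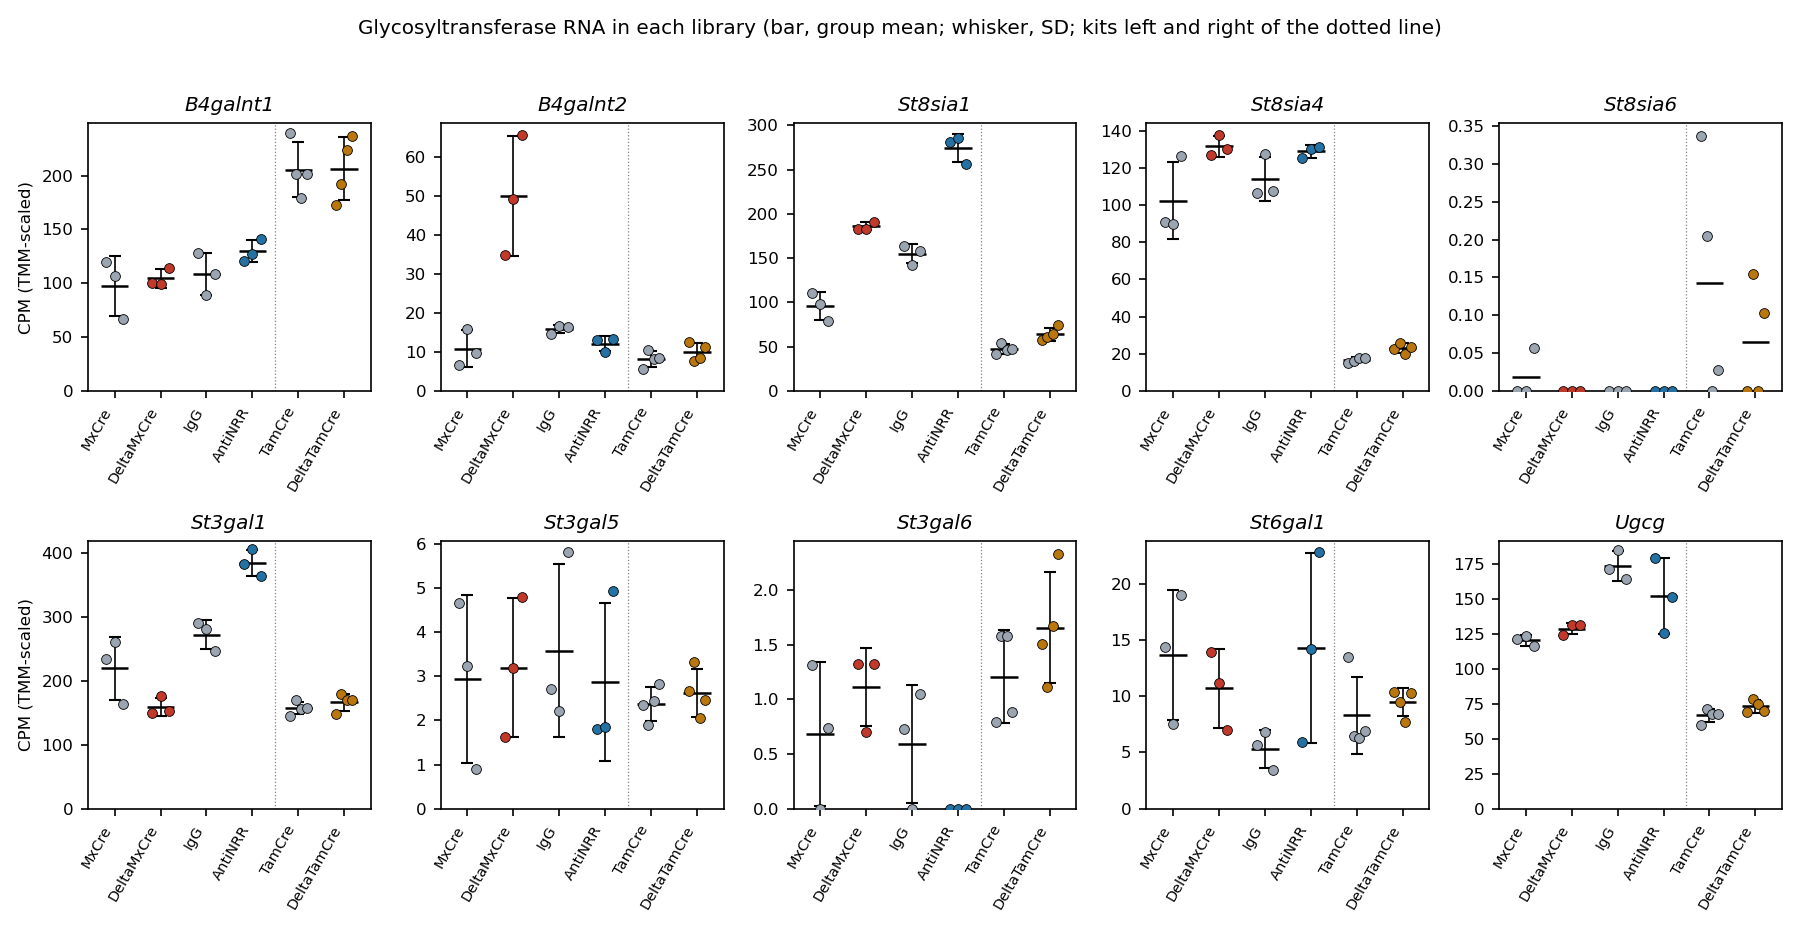
CPM of each of the 10 genes in each of the 20 libraries, by group; points are libraries, bars group means and whiskers SD (none drawn for St8sia6), and the dotted line separates the SMARTer from the TruSeq libraries. B4galnt2 in DeltaMxCre (34.9 to 65.8 CPM) and St8sia1 in AntiNRR (256.5 to 286 CPM) lie above their controls, and each panel has its own axis from 0.

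St8sia1, the GD3 synthase (ENSMUSG00000030283.7, mm10 chr6:142821545-142964452, minus strand), measured 110.0, 98.3 and 79.1 CPM in the MxCre libraries and 183, 183 and 191 CPM in DeltaMxCre. The DeltaMxCre values were closely grouped and all lay above MxCre. The means were 95.8 ± 15.6 CPM (SD, n = 3) and 186 ± 4.6 CPM (SD, n = 3), and the log2 fold change was 0.96 ± 0.12 (SE). In the antibody libraries St8sia1 measured 163, 143 and 158 CPM in IgG and 281, 286 and 256.5 CPM in AntiNRR, again with no overlap. It rose by a log2 fold change of 0.83 ± 0.12 (SE), with an adjusted p of 0.000146 (edgeR quasi-likelihood test, adjusted over all genes), and was higher in 3 of 3 AntiNRR libraries than in any IgG library. It kept that call when any single library was left out. In TamCre it measured 41.3, 54.1, 45.6 and 47.4 CPM and in DeltaTamCre 57.2, 60.8, 63.8 and 73.9 CPM. Those ranges did not overlap, and the log2 fold change was 0.44 ± 0.10 (SE).

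Across the SMARTer groups the St8sia1 ranges followed one another without overlap, from MxCre through IgG and DeltaMxCre to AntiNRR. The 2 control groups thus differed from each other, with IgG above MxCre. They differ in agent and time after injection, and this difference was not tested.

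In the authors' deposited table the fold change of St8sia1 was 2.00 in DeltaMxCre, 1.36 in AntiNRR with a q-value of 0.0127, and 1.25 in DeltaTamCre. The ratio of mean CPM here was 1.94, 1.77 and 1.36. For this gene the ratio of mean CPM to the authors' group FPKM was 9.22 in IgG and 12.1 in AntiNRR.

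B4galnt2 (ENSMUSG00000013418.8, mm10 chr11:95865943-95914891, minus strand), which adds N-acetylgalactosamine to sialylated chains in the Sda antigen, measured 6.75, 15.98 and 9.65 CPM in MxCre and 34.9, 49.3 and 65.8 CPM in DeltaMxCre. Every DeltaMxCre library exceeded every MxCre library. The log2 fold change was 2.21 ± 0.30 (SE), from a mean of 10.8 to 50.0 CPM. In IgG it measured 14.6, 16.6 and 16.3 CPM and in AntiNRR 12.98, 9.89 and 13.4 CPM. All 3 AntiNRR libraries lay below all 3 IgG libraries, but the log2 fold change of -0.39 ± 0.29 (SE) did not pass the test, with an edgeR adjusted p of 0.578. Its 95% interval ran from -0.96 to 0.18. TamCre libraries measured 5.51, 10.6, 8.10 and 8.46 CPM and DeltaTamCre libraries 12.5, 7.72, 8.56 and 11.3 CPM. These ranges overlapped, and the log2 fold change was 0.29 ± 0.21 (SE).

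**Figure D2:**
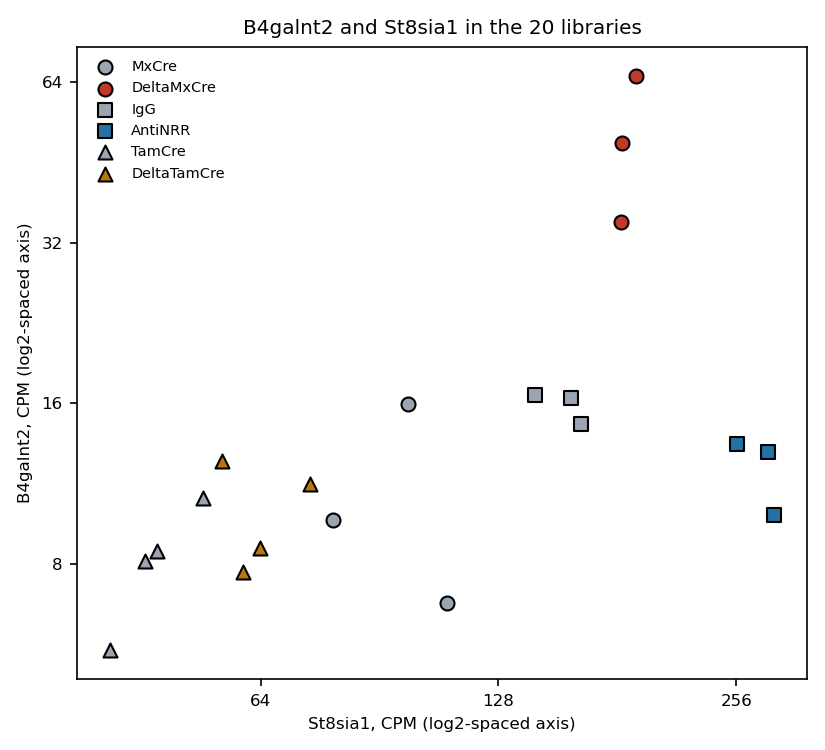
CPM of St8sia1 (horizontal) against B4galnt2 (vertical) in each of the 20 libraries, both on log2-spaced axes, with grey symbols for controls. DeltaMxCre libraries (red circles) are high for both genes, whereas AntiNRR libraries (blue squares) reach 256.5 to 286 CPM of St8sia1 at 9.89 to 13.4 CPM of B4galnt2.

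St8sia1 and B4galnt2 were high together in DeltaMxCre, which follows from how the set was chosen. They were apart in AntiNRR, where St8sia1 was at its highest of the SMARTer groups while the B4galnt2 range was 9.89 to 13.4 CPM. Over the 20 libraries, with each pair of groups centred on its own mean, their log2 CPM had a Pearson r of 0.56. This is a description: the libraries of a group share its condition, and the MxCre and DeltaMxCre libraries are among them.

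The other ganglioside enzymes are Ugcg, B4galnt1 and St3gal5. Ugcg, which starts glycosphingolipid synthesis, measured 121, 123 and 116 CPM in MxCre and 124, 131 and 131 CPM in DeltaMxCre. The ranges were separated by less than 1 CPM, and the log2 fold change was 0.10 ± 0.13 (SE). In IgG it measured 171, 185 and 164 CPM and in AntiNRR 179, 125 and 152 CPM, which overlapped (log2 fold change -0.19 ± 0.13 SE, edgeR adjusted p of 0.518). In the tamoxifen model its log2 fold change was 0.13 ± 0.07 (SE), with overlapping ranges of 59.8 to 71.1 CPM in TamCre and 69.4 to 78.3 CPM in DeltaTamCre.

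B4galnt1, the GM2 and GD2 synthase, measured 120, 107 and 66.4 CPM in MxCre and 100.3, 98.8 and 114 CPM in DeltaMxCre, with the lowest value in MxCre 3. The groups overlapped, and the log2 fold change was 0.10 ± 0.17 (SE). IgG libraries measured 128.2, 89.2 and 108 CPM and AntiNRR libraries 121, 127 and 141 CPM. The log2 fold change of 0.26 ± 0.17 (SE) did not pass (edgeR adjusted p of 0.507), while the authors' deposited table gave a fold change of 1.33 with a q-value of 0.0370. TamCre spanned 179 to 240.0 CPM and DeltaTamCre 173 to 237 CPM, with a log2 fold change of 0.01 ± 0.11 (SE).

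St3gal5, the GM3 synthase that makes the substrate of St8sia1, was sparsely counted in the SMARTer libraries, at 16 to 94 counts each. It measured 4.66, 3.25 and 0.90 CPM in MxCre and 1.63, 3.18 and 4.79 CPM in DeltaMxCre. Both groups spanned a severalfold range, and the log2 fold change was 0.13 ± 0.73 (SE). In AntiNRR against IgG it was -0.32 ± 0.73 (SE, edgeR adjusted p of 0.898, 95% interval -1.75 to 1.11), so a change of the size seen for St8sia1 was not resolvable in either direction at this depth. In the deeper TruSeq libraries, with 145 to 222 counts each, it was 0.14 ± 0.21 (SE).

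St8sia4, a polysialyltransferase, measured 90.7, 90.0 and 126 CPM in MxCre and 127, 138 and 130.2 CPM in DeltaMxCre. MxCre 3 stood above the other MxCre libraries and lay just under the lowest DeltaMxCre value. The log2 fold change was 0.36 ± 0.14 (SE). In the tamoxifen model St8sia4 measured 15.1, 16.2, 17.6 and 17.8 CPM in TamCre and 22.5, 25.9, 19.7 and 23.7 CPM in DeltaTamCre, with no overlap and a log2 fold change of 0.46 ± 0.10 (SE), close to that of St8sia1 in the same mice. In IgG it measured 107, 127.7 and 108 CPM and in AntiNRR 125, 130.0 and 132 CPM, which overlapped (log2 fold change 0.18 ± 0.14 SE, edgeR adjusted p of 0.588).

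St8sia6, the remaining enzyme that joins sialic acids to each other, was nearly absent from the counts. The 12 SMARTer libraries together held 1 count, in MxCre 3. A count of 0 allows up to 0.0606 CPM over the 3 IgG libraries and 0.0695 over the 3 AntiNRR libraries. TamCre libraries held 31, 21, 0 and 2 counts and DeltaTamCre libraries 0, 10, 0 and 7. It did not pass the filter on low counts in either fit and was not tested.

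St3gal1, which sialylates the core O-glycan and whose product masks the binding site of peanut agglutinin on thymocytes, measured 290, 280.4 and 247 CPM in IgG and 382, 405 and 364 CPM in AntiNRR. All AntiNRR libraries lay above all IgG libraries, and St3gal1 rose by a log2 fold change of 0.50 ± 0.13 (SE), with an edgeR adjusted p of 0.0291. This call was lost in 5 of the 6 fits that left out 1 library: without IgG 1, IgG 2 or IgG 3 (adjusted p of 0.0508, 0.0901 and 0.169), and without AntiNRR 1 or AntiNRR 2 (0.0802 and 0.108). The authors' deposited table gave it a fold change of 1.54 with a q-value of 0.00143. In MxCre it measured 234, 260.0 and 164 CPM and in DeltaMxCre 149.7, 176 and 152 CPM. MxCre 3 lay within the DeltaMxCre range, and the log2 fold change was -0.46 ± 0.13 (SE), opposite in sign to that under Notch1 blockade. TamCre and DeltaTamCre spanned 146 to 170.3 and 148 to 179 CPM, with a log2 fold change of 0.08 ± 0.08 (SE).

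St6gal1, which places sialic acid on N-glycans, varied widely among the AntiNRR libraries. IgG measured 5.69, 6.81 and 3.47 CPM and AntiNRR 5.90, 14.2 and 22.8 CPM, so that AntiNRR 1 lay inside the IgG range and AntiNRR 3 far above it. The log2 fold change was 1.42 ± 0.44 (SE), and the edgeR adjusted p of 0.0682 did not pass. Over the alternatives the adjusted p ran from 0.0163 to 0.341, and 3 of them called the gene: DESeq2, the fit with no filter on low counts and the fit without AntiNRR 1. The log2 fold change was 1.80 without AntiNRR 1 and 0.91 without AntiNRR 3. The authors' deposited table gave a fold change of 2.84 with a q-value of 0.00624. That fold change rests on an IgG level of 1.21 FPKM, near the lowest value in their table, 1 FPKM. MxCre (14.4, 7.55 and 19.02 CPM) and DeltaMxCre (13.97, 11.2 and 6.99 CPM) overlapped. TamCre libraries measured 13.5, 6.46, 6.31 and 6.94 CPM and DeltaTamCre 10.4, 9.53, 7.74 and 10.3 CPM, and only TamCre 1 exceeded the DeltaTamCre libraries.

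St3gal6, which sialylates selectin ligands, was listed at 0 counts in all 3 AntiNRR libraries and at 14, 0 and 17 counts in IgG. IgG 2 was thus at 0 too. With a floor of 3 counts over the AntiNRR group, the pooled IgG level of 31 counts lay 9.02-fold above that floor. This figure allows for counting error in AntiNRR only and not for the spread between libraries. The edgeR adjusted p of 0.183 did not pass, so a fall is not resolved. In MxCre it had 22, 0 and 13 counts and in DeltaMxCre 17, 13 and 24. TamCre measured 0.79 to 1.58 CPM and DeltaTamCre 1.11 to 2.33 CPM, with a log2 fold change of 0.45 ± 0.32 (SE).

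**Figure D3:**
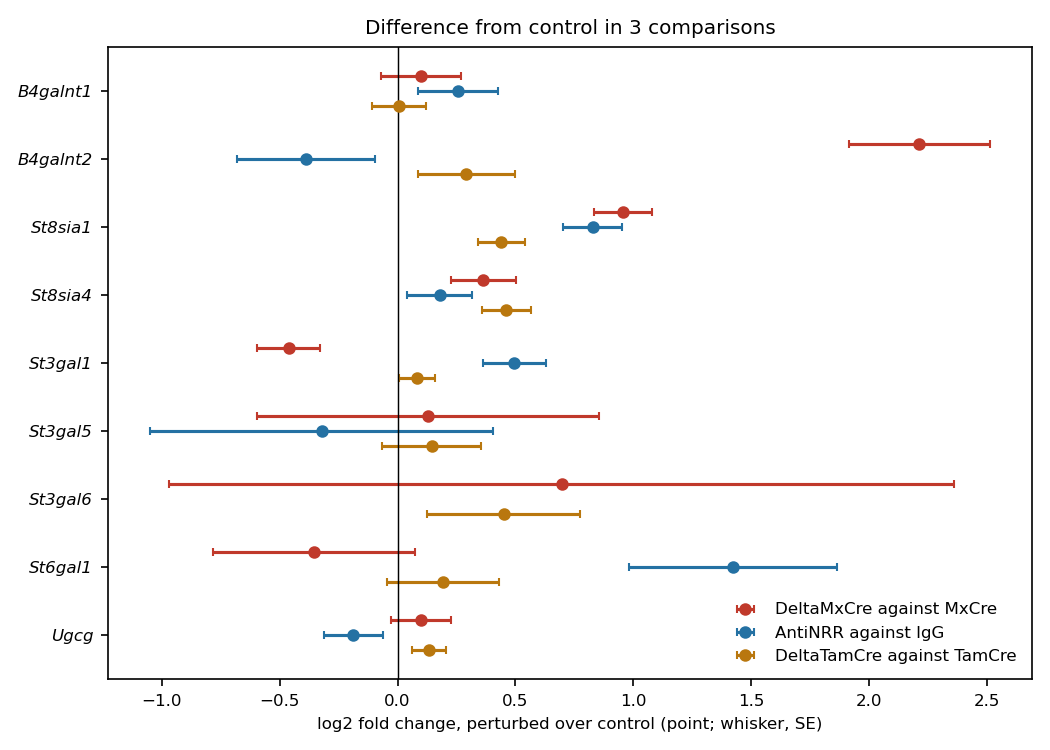
Log2 fold change of perturbed over control group (points) with SE (whiskers) for the 9 tested genes in the 3 comparisons; St3gal6 in AntiNRR, at 0 counts, is left out. B4galnt2 at 2.21 in DeltaMxCre is the largest, St8sia1 is above 0 in all 3 comparisons, and St3gal1 and B4galnt2 lie on opposite sides of 0 in DeltaMxCre and AntiNRR.

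Counted together, 9 of the 10 genes passed the filter in each fit. DeltaMxCre had 2 members called at an edgeR adjusted p under 0.05, both higher, beside 2.94% of 13557 genes called in either direction and 1.67% called higher. No member was called lower, beside 1.27% of all genes. Both Zmiz1 comparisons were used in choosing the set, and nothing is read from the counts of members in them. AntiNRR had 2 of 9 called, both higher, beside 4.06% of all genes called and 1.66% called higher. DeltaTamCre had 0 of 9 called by edgeR, beside 0.0892% of 13460 genes (0.0594% higher and 0.0297% lower). At an unadjusted p under 0.05 edgeR gave 2 members there, beside 16% of all genes, and DESeq2 called 2 (St8sia1 and St8sia4) beside 4.05%. Ranges that did not overlap were found for 4 members in DeltaMxCre, all higher, beside 10.2% of all genes. AntiNRR had 2 such members above IgG, beside 10.3%, and 1 below, beside 11.3%. DeltaTamCre had 2 above, beside 4.84%, and 0 below, beside 5.75%. DESeq2 called 3 members in DeltaMxCre (St3gal1 added, as lower) beside 5.1% of all genes, and 3 in AntiNRR (St6gal1 added) beside 6.09%. The median log2 fold change of the 9 members was 0.13, 0.18 and 0.19 in DeltaMxCre, AntiNRR and DeltaTamCre, where that of all genes was -0.03, -0.02 and 0.02. Without MxCre 3 the count of members called in DeltaMxCre was 4, with St8sia4 and St3gal1 added.

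Levels per transcript length, from the authors' group FPKM, put the same genes, Ugcg, B4galnt1, St3gal1 and St8sia4, in the first 4 places in all 6 groups. B4galnt1 was first in TamCre, at 80.6 FPKM. St8sia1 was 5th in all 6 groups, at 9.80 FPKM in MxCre, 19.6 in DeltaMxCre, 16.8 in IgG, 22.7 in AntiNRR, 4.70 in TamCre and 5.88 in DeltaTamCre. B4galnt2 stood at 2.64 FPKM in MxCre and 12.3 in DeltaMxCre, 4.02 in IgG, 3.12 in AntiNRR, 2.03 in TamCre and 2.42 in DeltaTamCre. No value in the authors' deposited table is under 1 FPKM and 34.0% of its values equal 1, so for St8sia6, St3gal5 and St3gal6, with values near 1 FPKM, its fold changes are not read here. St6gal1 in IgG, at 1.21 FPKM, is near that floor too, which limits its fold change of 2.84 in AntiNRR.

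**Figure D4:**
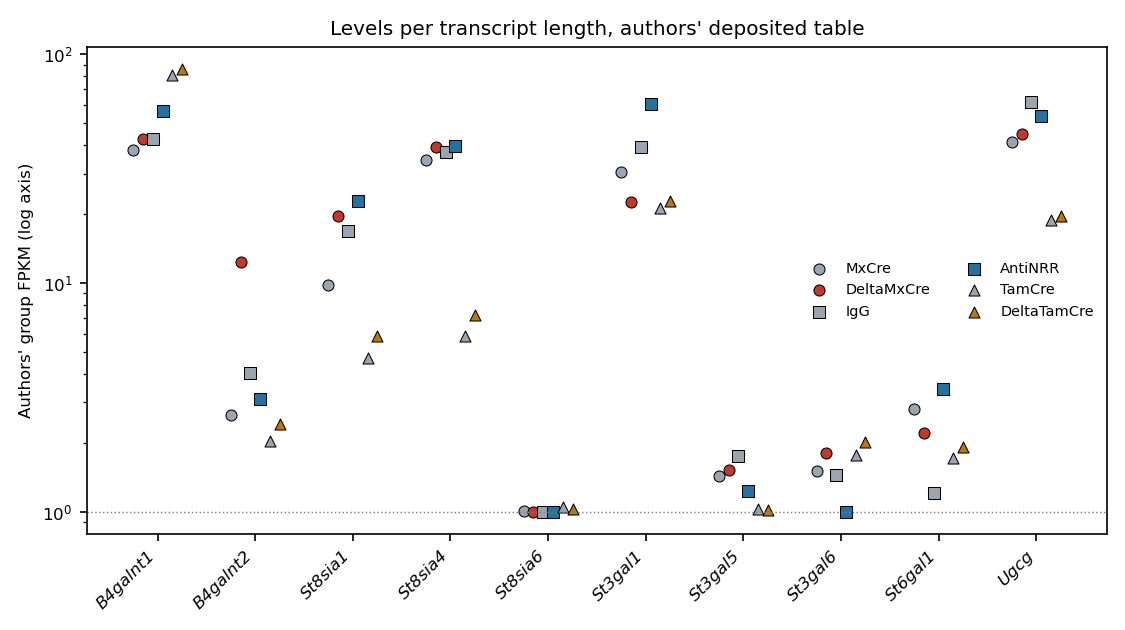
The authors' group FPKM (log axis) of the 10 genes, 1 symbol per group with no error since the deposited value is a group mean; the dotted line marks 1 FPKM, the lowest value in the table. St8sia1 keeps its place below B4galnt1, Ugcg, St3gal1 and St8sia4 in every group, and B4galnt2 in DeltaMxCre, at 12.3 FPKM, stands above its other groups.

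Among 87 other genes of glycan and glycolipid synthesis and breakdown, in 7 lists, 5 from different steps were called under Notch1 blockade. Of the 73 tested, 3 rose and 2 fell at an edgeR adjusted p under 0.05, beside 1.66% and 2.4% of all genes (4.06% in either direction). With 1 library left out, 1 to 3 were called. The count is not read as an effect on these lists. Psap, the precursor of the saposins that present glycolipids to lysosomal enzymes, rose from 417, 365 and 320.0 CPM in IgG to 542, 530.2 and 515 CPM in AntiNRR (log2 fold change 0.53 ± 0.12 SE, adjusted p of 0.00792). Man1a, a mannosidase that trims N-glycans, rose from 108, 77.0 and 83.8 CPM to 168, 115 and 119 CPM (0.58 ± 0.16 SE, adjusted p of 0.0352). Galnt10, which starts O-glycans, rose from 77.1, 80.3 and 89.3 CPM to 102, 122 and 118 CPM (0.47 ± 0.13 SE, adjusted p of 0.0426). Each of these had all AntiNRR libraries above all IgG libraries.

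St6galnac4, a sialyltransferase that acts on the product of St3gal1, fell from 69.3, 76.2 and 71.0 CPM in IgG to 38.6, 37.5 and 53.5 CPM in AntiNRR (-0.74 ± 0.18 SE, edgeR adjusted p of 0.0134), so it and St3gal1 moved in opposite directions. Its log2 fold change was -0.45 ± 0.18 (SE) in DeltaMxCre (edgeR adjusted p of 0.184) and -0.34 ± 0.15 (SE) in DeltaTamCre (0.311), neither of which passed. The authors' deposited table gave fold changes of 0.624, 0.704 and 0.750 in AntiNRR, DeltaMxCre and DeltaTamCre, with q-values of 0.0107, 0.0770 and 0.0166. Cers5, a ceramide synthase listed under its older symbol Lass5, fell from 18.4, 21.5 and 23.7 CPM to 13.9, 7.77 and 10.6 CPM (-0.97 ± 0.27 SE, edgeR adjusted p of 0.0403).

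With 1 library left out at a time, and so fewer samples, the log2 fold change ran from 0.44 to 0.63 for Psap, 0.38 to 0.74 for Man1a, -0.92 to -0.65 for St6galnac4, 0.42 to 0.54 for Galnt10 and -1.20 to -0.78 for Cers5. Man1a was at 0.38 without AntiNRR 1. Such fits gave adjusted p-values above 0.05 for Psap without IgG 3 (0.0904), for Man1a without IgG 2, IgG 3 or AntiNRR 1 (0.210, 0.154 and 0.274), and for St6galnac4 without IgG 2, AntiNRR 1 or AntiNRR 2 (0.0779, 0.0761 and 0.0782). Galnt10 and Cers5 kept the call in 1 of 6 such fits each, Galnt10 and Cers5 both without AntiNRR 1. Over all alternatives the adjusted p ran from 0.000641 to 0.0904 for Psap, 0.0146 to 0.274 for Man1a, 0.00383 to 0.0782 for St6galnac4, 0.0104 to 0.164 for Galnt10 and 0.00920 to 0.171 for Cers5.

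**Figure D5:**
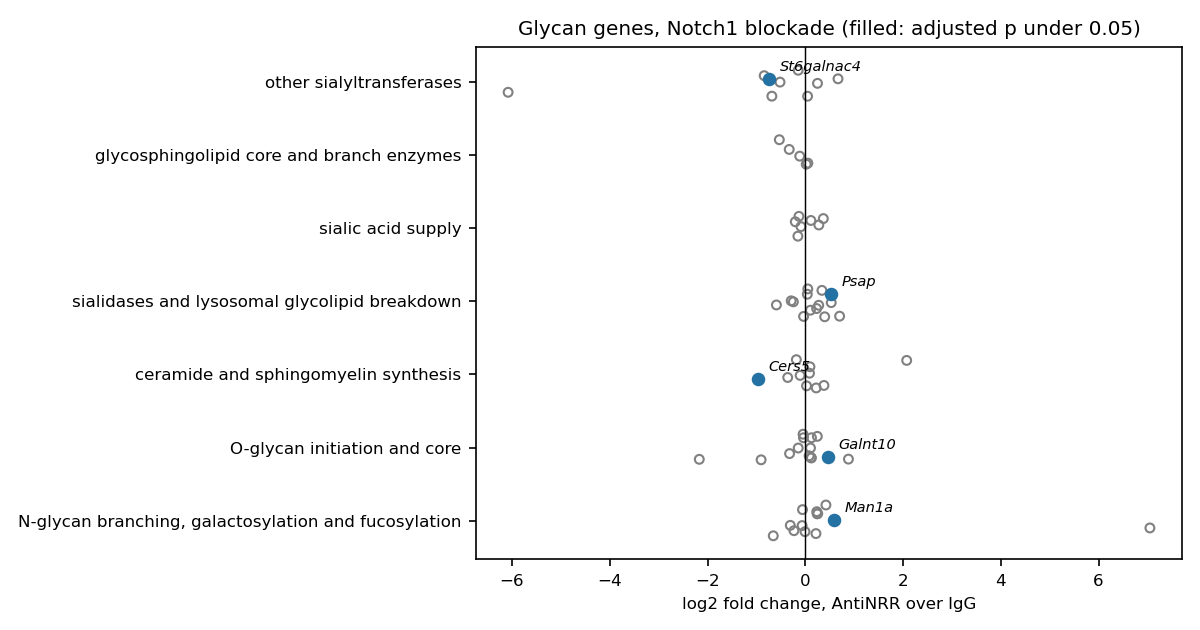
Log2 fold change of AntiNRR over IgG for the 73 tested genes of the 7 glycan and glycolipid lists (rows; vertical scatter within a row has no meaning), with filled points for the 5 genes at an edgeR adjusted p under 0.05. The called genes lie between -0.97 and 0.58, and the points beyond 2 in either direction are sparsely counted genes that did not pass, with St6galnac5 and Mgat3 at 0 in a whole group, where the fitted value is no measure of size.

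Neither Zmiz1 deletion had a called gene in these lists by edgeR, beside 2.94% of all genes in DeltaMxCre and 0.0892% in DeltaTamCre. In DeltaMxCre 0 of 73 passed, with 9 at an unadjusted p under 0.05 (16.5% of all genes) and 2 called by DESeq2 (5.1% of all genes), B4galt1 and B4galt4, both galactosyltransferases. B4galt4 averaged 24.8 CPM in MxCre and 11.3 in DeltaMxCre and had the smallest edgeR adjusted p, 0.0541. B4galt1 went the other way, from 95.3 to 138 CPM, with a log2 fold change of 0.54 ± 0.16 (SE) and an edgeR adjusted p of 0.0601. In DeltaTamCre 0 of 72 passed by edgeR or DESeq2 (4.05% of all genes by DESeq2), with 6 at an unadjusted p under 0.05 (16% of all genes). The sialic acid supply genes, 7 of 7 tested, had no gene called in any of the 3 comparisons, and their medians lay between -0.15 and -0.07. At the shares of all genes called (4.06% in AntiNRR), 0 among so few genes is not read as a lack of change. Among them, Cmas, which activates sialic acid for every sialyltransferase of the set, ends 45830 bases from St8sia1 on chromosome 6. Its log2 fold change was 0.09 ± 0.20 (SE) in DeltaMxCre, 0.28 ± 0.20 (SE) in AntiNRR (edgeR adjusted p of 0.551) and -0.02 ± 0.09 (SE) in DeltaTamCre. The glycosphingolipid core and branch enzymes, 5 or 4 tested of 9, also had none called, which is not read either.

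Markers of other cells moved in some of the same groups, and in bulk RNA fewer cells of a type and less RNA per cell cannot be told apart. Beside the rise of St8sia1 and St3gal1 in AntiNRR, the summed level of the gamma-delta T-cell list (3 of 4 markers in the table) was 73.8 to 89.4 CPM in IgG and 138 to 140.2 in AntiNRR. Within it Sox13 and Cd163l1 were higher without overlap, and Blk was not (7.31 to 13.6 and 6.93 to 8.62 CPM). In the same libraries the NK and innate list (5 of 5) was 120.2 to 149.6 and 229 to 255 CPM, with Ncr1 and Klrb1c at 0 in both groups. Most of that sum was Gzma (111 to 136 and 214 to 239 CPM), while Nkg7 overlapped. The earlier progenitor list (6 of 6) was 106 to 122 and 170.5 to 226 CPM, with Flt3 at 0 in IgG and Lyl1 at 0 in AntiNRR, and most of it was Kit (94.97 to 113 and 157 to 216 CPM). Thymic epithelium and stroma genes (5 of 5) summed to 239 to 249.1 and 297 to 317 CPM, with Krt5 and Krt8 at 0 in both. Most of that sum was Pecam1 (166 to 172 and 209 to 243 CPM), while Epcam overlapped (72.0 to 80.8 and 68.7 to 87.1 CPM).

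Beside the higher St8sia1 and B4galnt2 in DeltaMxCre, Blk was 7.68 to 15.95 CPM in MxCre and 20.02 to 29.6 in DeltaMxCre, Cd163l1 8.13 to 18.8 and 21.7 to 48.2, and Nkg7 7.62 to 14.99 and 17.4 to 20.3. The gamma-delta list as a whole (53.9 to 89.4 and 81.2 to 108 CPM) and the NK and innate list (100.1 to 206 and 91.4 to 120.4 CPM) overlapped. Within the gamma-delta list Sox13 was 30.5 to 73.6 CPM in MxCre and 24.8 to 43.2 in DeltaMxCre. Gzma, most of the NK and innate sum, was 88.1 to 197 and 71.2 to 100.1 CPM. Both genes overlapped, and both reached lower in DeltaMxCre. Cd44 fell from a mean of 5.67 to 0.668 CPM (edgeR adjusted p of 0.0151). It belongs to the earlier progenitor list, whose sum overlapped (94.7 to 117 CPM in MxCre and 100.4 to 135 in DeltaMxCre). Kit, most of that sum, overlapped as well (80.5 to 105 and 98.9 to 130 CPM). In DeltaTamCre the earlier progenitor list was 62.1 to 80.9 CPM against 52.8 to 61.5 in TamCre, and the NK and innate list was 207 to 231 against 267 to 283. Most of the progenitor sum was Kit, which overlapped (47.8 to 65.5 CPM in DeltaTamCre and 43.3 to 49.2 in TamCre). Most of the NK and innate sum was Gzma (111 to 160 CPM in DeltaTamCre and 193 to 218 in TamCre). Nkg7 of that list overlapped and reached higher in DeltaTamCre (70.2 to 99.0 and 62.5 to 73.1 CPM). The part of these markers in the results was not tested. The summed DP thymocyte list was 42.3 CPM in MxCre 3, against 17.1 in MxCre 1 and 17.98 in MxCre 2. DeltaMxCre spanned 20.9 to 28.4 CPM. Without MxCre 3 the log2 fold change in DeltaMxCre was 0.84 for St8sia1 and 2.15 for B4galnt2. St8sia4 was then at 0.55 and St3gal1 at -0.62. In the tamoxifen model the DP list was highest in its group in TamCre 2 (74.2 CPM) and DeltaTamCre 1 (123 CPM), and DeltaTamCre 4 was at 74.2 CPM too. Without TamCre 2 and DeltaTamCre 1 St8sia1 had a log2 fold change of 0.56 and St8sia4 of 0.45 in DeltaTamCre. Without DeltaTamCre 4 alone they were 0.36 and 0.44. In all 6 antibody libraries the B-cell marker Pax5 and the myeloid marker Cd14 were at 0, while Cd79b of the B-cell list was 21.2 to 34.2 CPM and Lyz2 of the myeloid list 10.7 to 23.6 CPM.

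The genes whose pattern over the 20 libraries was most like that of St8sia1, among 12818 genes and with each pair of groups centred on its own mean, were Pik3cd, a catalytic subunit of phosphoinositide kinase (Pearson r of 0.96), Lysmd3 (0.96) and Jakmip1 (0.94). Those most like B4galnt2 were 2810021B07Rik (0.91), Aplf, a DNA repair factor (0.91), and Gm12185 (0.89). These are descriptions: libraries of a group share its condition, and the highest of many values were taken. The likeness of Pik3cd was 0.98 within the SMARTer and 0.93 within the TruSeq libraries, and that of Gm12185 was 0.94 and 0.52.

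Exons of 6 members overlap a gene on the opposite strand in the GENCODE annotation: Slc26a10 for B4galnt1, Gm11534 for B4galnt2, Gm7457 for St8sia1, Gm37126 for St8sia6, Dcbld2 for St3gal6 and BC106179 for St6gal1. The strand setting of the counting is not given, so reads of such a pair cannot be told apart. Of those in the count table, Slc26a10 had at most 102 counts in a library, Gm7457 at most 68 and Dcbld2 at most 80.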

How the data were processed

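RNA of 20 libraries in 6 groups was analysed. Per the submitters' processing notes, the tools were FastQC 0.10.0, TopHat2 2.0.9, Bowtie2 2.1.0.0, Cufflinks and Cuffdiff 2.1.1 with mm10; no settings are given there. The deposited table holds expected counts estimated by the authors, of which 98.4% are whole numbers. The authors' table of comparisons holds group FPKM, a fold change (ratio of perturbed to control) and p-values with q-values, per the file headers.

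After rounding, the quasi-likelihood F test of edgeR 4.0.16 (R 4.3.3) was run with TMM scaling, the filterByExpr filter and robust fitting. P-values were adjusted over all genes by Benjamini-Hochberg, with a threshold of 0.05. The 12 SMARTer libraries shared 1 fit and the 8 TruSeq libraries another. The SE is the log2 fold change divided by the square root of F, and log2 CPM for likeness used a prior count of 2. Alternatives were DESeq2 1.42.0, other size factors, no filter, a fit of the 2 groups, a replicate block and leaving out each library. None of 190 pairs of libraries was a duplicate. Floors of 3 counts and intervals cover counting error or the fitted spread only.

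The members and gene lists were chosen with earlier results of these data known. Named genes are the 10 members, the listed pathway genes called in AntiNRR or, for Zmiz1 deletion, up to 8 called in each direction, 4 label checks (Zmiz1, Dtx1, Il2ra and Ptcra) and the 3 genes most like St8sia1 and B4galnt2. B4galt1, B4galt4, Cmas, Cd44, markers and overlapping genes were named after their values were seen. Some marker genes and lists are not reported here. Of 87 pathway genes 4 were found under an older symbol. Replicates are separate mice for the Cre groups, per the labels' protocols. Promoter sequences are from RefSeq, and 8 of 10 members had 1 or more.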

Additional observations from a re-analysis of the deposited data

Results flagged for a closer look

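St6gal1 in TamCre 1 measured 13.5 CPM, against 6.31 to 6.94 CPM in the other TamCre libraries. The gap to the nearest library was 0.912 of the range of the group, which is past the 95% limit of Dixon's test. It was 1 flag among 18 pairs of gene and group examined, and chance flags about 1 in 20.

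The B4galnt2 estimates had opposite signs in the antibody and the MxCre comparisons. Its log2 fold change was 2.21 in DeltaMxCre, with all 3 libraries above MxCre, and -0.39 in AntiNRR, with all 3 libraries below IgG. The rise in DeltaMxCre was used in choosing the set. The AntiNRR value did not pass (edgeR adjusted p of 0.578, 95% interval -0.96 to 0.18), so its direction is not resolved. Estimates of St3gal1, St3gal5, St3gal6, St6gal1 and Ugcg also had opposite signs in these comparisons. The difference between the comparisons was not tested, and 27 pairs of gene and comparison were examined for such opposite moves.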

How the results depend on the processing

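In AntiNRR, the tested comparison, 26 values of single genes under alternatives lost a call, 3 gained one (all St6gal1) and 1 changed sign: St3gal5 without IgG 3, at a log2 fold change of 0.22 (range with 1 library left out, -0.96 to 0.22). In the Zmiz1 comparisons every single-gene value moved by less than the replicate SD, but estimates near 0 changed sign: St3gal5 ran from -0.29 to 0.63 and B4galnt1 from -0.11 to 0.27 in DeltaMxCre, B4galnt1 from -0.07 to 0.08 and St3gal5 from -0.0045 to 0.24 in DeltaTamCre. Where the cause of a change is not stated, the cause was not tested. In DeltaMxCre the count of all genes called was 399, against 691 with DESeq2, 183 in the fit of the 2 groups only, which has fewer libraries, and 138 to 427 when 1 library was left out (138 without DeltaMxCre 2 and 173 without DeltaMxCre 3). Members called were 2, against 3 with DESeq2 or no filter (St3gal1 added) and 2 to 4 with 1 library left out (4 without MxCre 3, with St3gal1 and St8sia4 added). Pathway genes called were 0, against 2 with DESeq2, 2 with no filter and 0 to 2 with 1 library left out. In AntiNRR all genes called were 551, and 257 to 470 with 1 library left out (257 without IgG 2, 295 without IgG 3, 342 without AntiNRR 1, 359 without AntiNRR 2 and 361 without IgG 1), and DESeq2 called 825. Members called were 2, and 1 to 2 with 1 library left out. Pathway genes called were 5, and 1 to 3 with 1 library left out. In DeltaTamCre all genes called were 12, against 545 with DESeq2 and 0 to 8 with 1 library left out (0 without TamCre 3 or TamCre 4), and members called were 0, against 2 with DESeq2 (St8sia1 and St8sia4). Leaving out TamCre 2 and DeltaTamCre 1 together, chosen after seeing the data, gave 8 genes and 0 members.

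Same-numbered libraries did not deviate together (correlations of -0.36 to 0.02 over genes), so no pairing by replicate number was seen. With 3 or 4 libraries per group this cannot exclude a pairing. DeltaTamCre 1, DeltaTamCre 3 and DeltaTamCre 4 were all most like TamCre 2, and DeltaTamCre 2 was most like TamCre 1. These matches are not 1 to 1, and a pairing under other numbers was not tested. With the replicate block, pathway genes called were 1 in DeltaMxCre (B4galt1) and 3 in AntiNRR, where Galnt10 and Cers5 were not called, and all genes called in DeltaTamCre were 0; members called were 3 in DeltaMxCre (St3gal1 added), 2 in AntiNRR and 0 in DeltaTamCre. Counts of 0 to 94 per SMARTer library limit St3gal5, St3gal6 and St8sia6.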
